A study of Rattus norvegicus with 12 samples.

Results

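Tumour necrosis factor alpha (TNFα) was given for 1 hour to rat hepatic progenitor cells (HPCs) labelled Tnfrsf1α-/-, and RNA from these cells was compared by RNA-seq with RNA from untreated cells of the same label. The comparison uses 4 of the 12 libraries of the series, chosen by their labels: TNFα-treated replicates 1 and 2 and untreated replicates 1 and 2. All cells are labelled as rat, as HPCs and as day 13.5 of gestation. The other 8 libraries are wild type and Tnfrsf1β-/- cells, each untreated or with TNFα for 1 hour, 2 libraries a group. The labels do not say how the knockouts were made, whether each is 1 clone or whether replicates came from separate cultures. The spread behind each p-value is thus one between libraries and may be technical. The authors deposited log2(FPKM + 1), where FPKM is a fragment count scaled by transcript length and library size. Every level below is on that scale, every difference is a difference of such levels, and the number of reads behind a library is unknown.

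TNFα is a cytokine released in inflammation. It binds the receptors TNFR1, encoded by Tnfrsf1a, and TNFR2, encoded by Tnfrsf1b. TNFR1 is found on most cells, carries a death domain and is the main route from soluble TNFα to the transcription factor NF-kB, which within the first hour induces early genes such as those for its own inhibitors, chemokines and cytokines. TNFR2 lacks a death domain and recruits TRAF adaptors directly. The series title names TNFR2 with hnRNPK, an RNA-binding protein, and YAP, a transcriptional co-activator, in liver cancer. Cells that lack TNFR1 can respond to TNFα through TNFR2 if they make it.

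The labelled deletion was not visible as an absence of transcript. Levels of the other groups are not set beside the values below, which thus do not show whether the transcript was reduced. Tnfrsf1a was at 5.94 and 6.13 in the untreated libraries and at 5.65 and 5.95 with TNFα. Tnfrsf1b was at 0.03 and 0 untreated, and was listed at 0 in treated replicate 1 and at 4.09 in treated replicate 2. Little or no TNFR2 transcript was thus seen here outside treated replicate 2. The receptor through which any change came was not tested. The libraries are therefore called by their label, on which all directions given here depend. RNA levels do not tell whether the protein was made.

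Several defining markers of the labelled cell type were not detected. Afp, the fetal serum albumin homologue, Epcam, a surface marker of hepatic progenitors, Dlk1, a hepatoblast marker, and Hnf4a, a liver transcription factor, were listed at 0 in all 4 libraries. Of 17 hepatocyte marker lines 1 or 2 reached 1 FPKM, with a summed level of 12.8 to 41.1 FPKM. Of 14 progenitor and bile duct markers, 11 had lines in the table that could be read in FPKM, and 1 or 2 of these reached 1 FPKM, with a summed level of 233 and 249 FPKM untreated and 82.6 and 69.9 FPKM with TNFα. Krt7, a bile duct keratin left out of these sums because its treated values were on a step, was at 7.75 and 7.99 in the untreated libraries, where no step was found. Sox9 and Cdh1, left out alike, were at 0.23 and 0.31 and at 0.02 and 0 in the untreated libraries. The leading marker in the sums was the keratin gene Krt8 in 3 libraries and Spp1, which encodes osteopontin, in treated replicate 2. Foxa2, of the same list, was at 1.78 and 1.85 untreated, 2.96 in treated replicate 1 and 0 in treated replicate 2. Of 11 such mesenchymal and stellate marker lines 5 or 6 reached 1 FPKM, with a sum of 3957 and 4125 FPKM untreated and 6152 and 2867 FPKM with TNFα. Of 6 mesothelial markers 5 reached 1 FPKM in each untreated library, with a sum of 2148 and 2335 FPKM, against 1962 and 90.4 FPKM with TNFα.

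A share of the table is not in FPKM. In 560 lines the values of at least 2 libraries fell on whole multiples of 1 step per library, whatever the gene, as unscaled counts would. A step was found in the 8 libraries of wild type, of TNFα-treated Tnfrsf1α-/- and of TNFα-treated Tnfrsf1β-/-, and none in the 4 untreated knockout libraries. Of the 560 lines, 506 were on the step in both treated Tnfrsf1α-/- libraries, 292 only in treated wild-type and Tnfrsf1α-/- libraries, and 197 in all 8. The step was 1.45 FPKM in treated replicate 1 and 1.79 FPKM in treated replicate 2. These lines held 61.9% and 55.8% of all FPKM in the treated libraries and 4.26% and 4.31% in the untreated ones. Treated and untreated values on a step cannot be read in 1 unit, so these lines were left out of every test reported here, except 1 alternative that includes them. Of the 558 with a mean FPKM of at least 1, 418 lay over 4 log2 units higher with TNFα, against 11 of the 11302 other lines, and the medians of treated minus untreated were 5.47 and -0.07. Genes lost in this way include Egr1, Junb, Dusp1, Icam1, Ccl20, Ctgf and Cflar, all of which are genes that TNFα or YAP is known to act on.

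**Figure D1:**
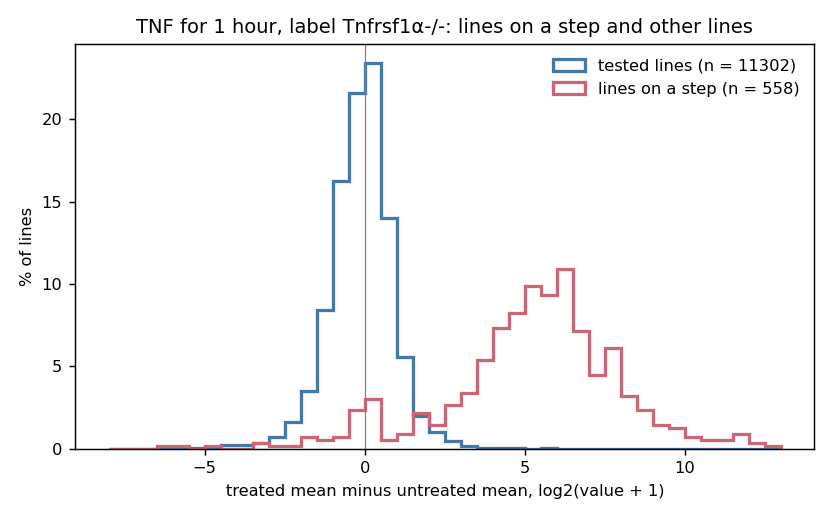
Share of table lines (y axis, % of each class) by treated mean minus untreated mean (x axis, log2 units) for the 11302 tested lines in blue and the 558 lines on a step in red. The tested lines centre at -0.07 and the lines on a step at 5.47.

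The treated libraries did not resemble each other. Spearman's rho over the 11302 tested lines, a description over genes that are not independent replicates, was 0.992 between the untreated libraries and 0.756 between the treated ones. Treated replicate 1 was at 0.935 and 0.944 to the untreated pair, and replicate 2 at 0.668 and 0.689. The treated pair differed by over 2 log2 units in 1207 lines, against 8 for the untreated pair. Replicate 2 was closest to untreated wild type replicate 1, at 0.812. Each treated library is therefore given apart below, beside the fit of both.

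With limma, 1128 of 11302 lines (9.98%) differed between both treated and both untreated libraries at an adjusted p of 0.05, 480 higher (4.25%) and 648 lower (5.73%). Replicate 1 alone against the untreated pair gave 452 higher (4%) and 667 lower (5.9%). Replicate 2 alone gave 2882 higher (25.5%) and 3593 lower (31.8%), 57.3% of lines in all. In both single fits the lone treated library is assumed to vary like the other groups, and the fits share their untreated libraries. Every count of list members called below is to be read beside these shares of all lines in the same fit. The shares are large for replicate 2 alone, so many members of any list are called there. In all 3 fits 274 lines (2.42%) were called higher and 465 (4.11%) lower. The count rests on single libraries: it was 62 without untreated replicate 1, 131 without untreated replicate 2, 418 or 419 without a TNFα-treated wild-type library, 407 without an untreated Tnfrsf1β-/- library and 6475 without treated replicate 1. Replicate 1 alone gave 364 lines without untreated replicate 1 and 498 without untreated replicate 2, in place of 1119 (9.9%). A limma fit of only these 4 libraries called 0, with 1448 lines at an unadjusted p under 0.05. The fit of both pools 1 spread per gene over 6 groups. The treated pair differed by over 2 log2 units in 1207 lines, and every other pair in at most 106. The SE and p-values given below may thus understate the spread of the treated pair. The fit of both averages the differences of the single fits, so the 3 fits are not independent. All 274 and 465 lines called in all 3 fits have treated and untreated libraries that do not overlap. Where non-overlap is stated below for such lines, it therefore adds no support to the call.

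**Figure D2:**
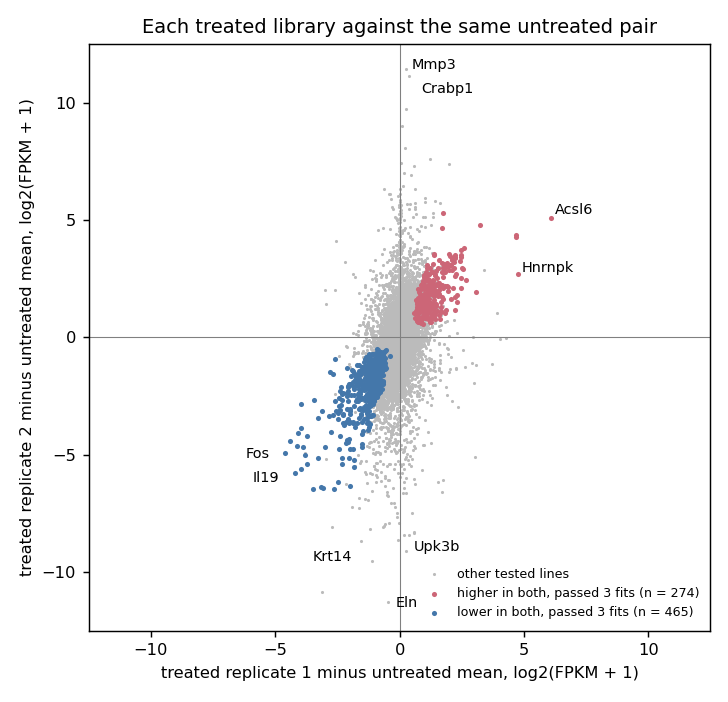
Treated replicate 1 (x axis) and treated replicate 2 (y axis), each minus the mean of the same untreated pair, in log2(FPKM + 1), for the 11302 tested lines. The 274 lines called higher in all 3 fits are red and the 465 called lower are blue, while Mmp3 lies 11.42 units higher and Eln -11.27 units from the untreated mean in replicate 2 alone.

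The genes with the largest agreed falls included Fos and Il19. Fos, a subunit of the AP-1 transcription factor, was at 5.92 and 5.89 untreated and at 1.30 and 0.96 with TNFα, a fall of 4.78 ± 0.23 (SE, limma adjusted p = 5.73e-05). Il19, a cytokine of the IL-10 family, was at 5.87 and 5.66 untreated and at 1.54 and 0 with TNFα, a difference of -4.99 ± 0.56 (limma adjusted p = 0.00263). Both treated libraries were below both untreated ones for each gene. Slfn4, an interferon-inducible gene of myeloid cells in mouse, was at 7.63 and 7.36 untreated and at 4.01 and 1.05 with TNFα. The matrix protein gene Abi3bp was at 5.65 and 5.64 untreated and at 1.66 and 0.03 with TNFα. In these, replicate 2 was the lower of the treated libraries.

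The other 8 of the 12 largest agreed falls had differences of -4.78 to -4.32. Cmah, which encodes a sialic acid hydroxylase, was at 6.43 and 6.35 untreated and at 3.21 and 0 with TNFα. The immunoregulatory ligand gene Cd200 was at 6.57 and 6.30 untreated and at 3.37 and 0 with TNFα. Scn4b, a sodium channel beta subunit, Plet1, a placental and progenitor cell surface gene, Npr3, the natriuretic peptide clearance receptor, and Has1, a hyaluronan synthase, fell likewise, with replicate 1 between 1.23 and 4.04 and replicate 2 between 0 and 0.19. LOC108348298, at 4.50 and 4.29 untreated and listed at 0 with TNFα, was listed at 0 in the other 8 libraries of the series too. Rn60_1_2212.3 was at 5.41 and 4.96 untreated and at 1.07 and 0.57 with TNFα.

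AP-1 and other immediate early genes that passed in the fit of both libraries were lower. Of 10 AP-1 genes tested, 0 were called higher and 2 lower, Fos and Fosb. Fosb was at 4.10 and 4.05 untreated and at 0.13 and 1.22 with TNFα. The AP-1 list median was -0.34 in replicate 1 and -0.76 in replicate 2. The MAP kinase phosphatase and Sprouty feedback list was mixed: of 11 tested, 1 was called higher and 1 lower. Of 23 immediate early genes outside AP-1, 0 were called higher and 6 lower, with a list median of -1.07 against -0.07 over all lines. Replicate 1 alone called 11 lower and 0 higher (median -0.80), and replicate 2 alone 15 lower and 3 higher (median -1.52). Zfp36, which encodes the mRNA-decay protein tristetraprolin, was at 5.93 and 6.13 untreated and at 3.61 and 3.10 with TNFα, a difference of -2.68 ± 0.28 (limma adjusted p = 0.00181). Its relative Zfp36l1 was at 8.18 and 8.06 untreated and at 6.13 and 4.53 with TNFα. The antiproliferative gene Btg2 was at 5.548 and 5.395 untreated and at 3.40 and 2.76 with TNFα. Nr4a1, an orphan nuclear receptor, was at 3.10 and 3.28 untreated and at 0.53 and 1.64 with TNFα. In all 4 the treated libraries lay below the untreated ones, and for Nr4a1 and Fosb replicate 1 was the lower. Of 25 p53 targets 0 were called higher and 4 lower, namely Btg2, the kinase gene Plk2, the death receptor gene Fas and the TNF receptor superfamily gene Eda2r.

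Genes of the NF-kB pathway were not called higher with TNFα in the fit of both libraries. Of 11 NF-kB subunits and IkB proteins 0 were called higher and 3 lower, with a median of -0.89. Replicate 1 alone called 0 higher and 2 lower, and replicate 2 alone 2 higher and 5 lower. Without any 1 untreated knockout, treated wild-type or treated Tnfrsf1β-/- library 1 call was left. Bcl3, an IkB family co-activator, was at 4.41 and 4.75 untreated and at 1.88 and 1.28 with TNFα, a difference of -2.99 (limma adjusted p = 0.00169). Nfkb1, which encodes the p50 precursor, was at 5.94 and 5.97 untreated and at 4.84 and 3.96 with TNFα. Nfkbiz, a nuclear IkB protein, was at 5.41 and 5.81 untreated and at 3.96 and 1.95 with TNFα. Tnfaip3, which encodes the feedback inhibitor A20, did not pass, at 4.84 and 4.88 untreated and 3.76 and 3.33 with TNFα (limma adjusted p = 0.0775). Nfkbia, which encodes IkBα and was chosen here after its values were seen, went different ways: it was at 6.28 and 6.43 untreated, at 5.07 in replicate 1 and at 7.01 in replicate 2. Replicate 1 alone was called lower (limma adjusted p = 0.00793) and replicate 2 alone higher (limma adjusted p = 0.0266).

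The 1 chemokine gene and the 4 TNF superfamily receptor and ligand genes called in the fit of both libraries were lower. For the chemokines, 1 of 11 is a share near the 9.98% of all lines called in that fit. Cxcl1, a neutrophil chemokine, was at 9.79 and 9.66 untreated and at 7.97 and 8.14 with TNFα, a difference of -1.67 ± 0.21 (limma adjusted p = 0.00403), and was the 1 member called of 11 chemokines. Il6, a cytokine that drives the acute phase response in liver, was at 2.20 and 2.52 untreated and at 1.28 and 0.39 with TNFα (difference -1.53, limma adjusted p = 0.0138). For both genes the groups did not overlap. Ccl2 and Ccl7, monocyte chemokines, were called in replicate 2 alone: Ccl2 was at 9.73 and 9.69 untreated, 8.80 in replicate 1 and 4.07 in replicate 2. That library alone called 7 chemokines lower and 2 higher. Of 14 TNF superfamily receptors and ligands 0 were called higher and 4 lower, namely Eda2r, Tnfrsf25, Tnfrsf9 and Fas. None of the 4 calls was left by limma without untreated replicate 1 or 2, and 1 without a treated wild-type or an untreated Tnfrsf1β-/- library. Replicate 1 alone called 1 higher and 3 lower, and replicate 2 alone 3 higher and 7 lower. Of 26 receptor adaptors and death signalling genes none was called by limma in the fit of both libraries, while replicate 1 alone called 1 lower. Replicate 2 alone called 6 higher and 7 lower, shares no larger than the 25.5% and 31.8% of all lines.

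**Figure D3:**
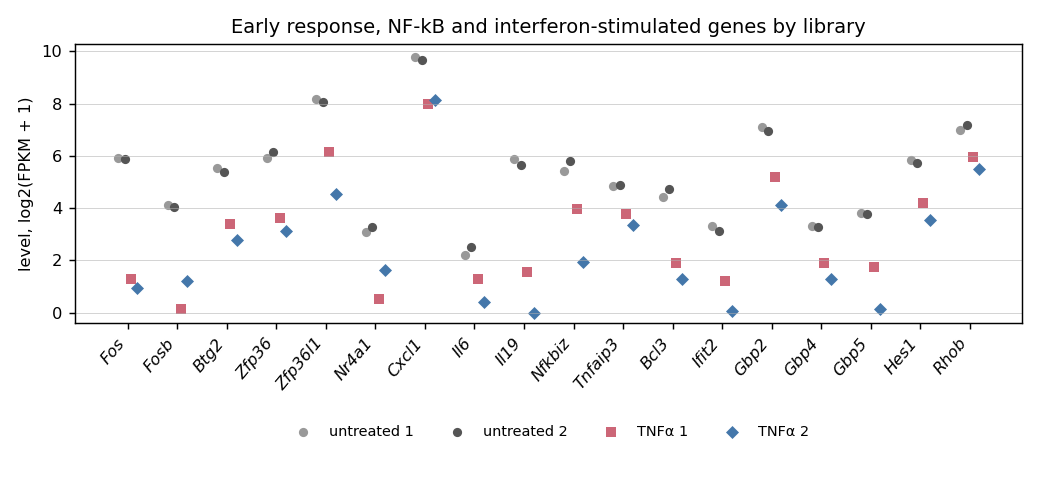
Level in log2(FPKM + 1) (y axis) of 18 early response, NF-kB and interferon-stimulated genes (x axis) in the untreated libraries (grey circles) and in TNFα-treated replicates 1 (red squares) and 2 (blue diamonds). In each of the 18 genes both treated libraries lie below both untreated ones.

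Promoters of 4 genes that were lower and of 1 gene that rose are shown because they hold the motifs searched for. Each run is 250 bases before to 50 after the RefSeq gene start in GRCr8, read 5′ to 3′ on the gene's strand. Capitals mark an NF-kB motif (GGG, NN and then TTTCC or TTCCC) or GGAATG (TEAD, the partner of YAP), on either strand. The build of the deposited table is unknown and no value was placed by coordinate. Cxcl1 lies at chr14:17479272-17479571 (minus strand), Il6 at chr4:5894526-5894825 (minus), Gbp5 at chr2:233910749-233911048 (plus), Bcl3 at chr1:88613506-88613805 (minus) and Grn at chr10:87887584-87887883 (plus).
Cxcl1: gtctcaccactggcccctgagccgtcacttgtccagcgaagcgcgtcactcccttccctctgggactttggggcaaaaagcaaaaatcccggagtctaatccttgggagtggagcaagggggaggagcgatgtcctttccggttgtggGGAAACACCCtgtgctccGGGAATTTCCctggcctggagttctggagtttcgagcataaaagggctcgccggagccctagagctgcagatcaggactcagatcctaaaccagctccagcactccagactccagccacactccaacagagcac
Il6: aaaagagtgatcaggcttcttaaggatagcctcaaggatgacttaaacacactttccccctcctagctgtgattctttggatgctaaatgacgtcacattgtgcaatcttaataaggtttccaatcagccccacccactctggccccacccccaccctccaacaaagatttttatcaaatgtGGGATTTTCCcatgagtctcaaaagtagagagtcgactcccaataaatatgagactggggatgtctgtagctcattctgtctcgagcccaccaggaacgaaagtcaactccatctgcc
Gbp5: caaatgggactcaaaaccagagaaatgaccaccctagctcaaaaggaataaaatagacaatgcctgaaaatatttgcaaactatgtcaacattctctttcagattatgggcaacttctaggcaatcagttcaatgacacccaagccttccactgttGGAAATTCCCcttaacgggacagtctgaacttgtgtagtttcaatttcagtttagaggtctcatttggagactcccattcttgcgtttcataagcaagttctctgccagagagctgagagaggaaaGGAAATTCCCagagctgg
Bcl3: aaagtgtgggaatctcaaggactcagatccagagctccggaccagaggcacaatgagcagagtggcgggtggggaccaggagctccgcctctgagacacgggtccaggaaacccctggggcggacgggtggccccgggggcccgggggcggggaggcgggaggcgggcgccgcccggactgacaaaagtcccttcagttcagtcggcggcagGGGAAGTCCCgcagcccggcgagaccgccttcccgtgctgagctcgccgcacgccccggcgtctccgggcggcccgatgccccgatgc
Grn: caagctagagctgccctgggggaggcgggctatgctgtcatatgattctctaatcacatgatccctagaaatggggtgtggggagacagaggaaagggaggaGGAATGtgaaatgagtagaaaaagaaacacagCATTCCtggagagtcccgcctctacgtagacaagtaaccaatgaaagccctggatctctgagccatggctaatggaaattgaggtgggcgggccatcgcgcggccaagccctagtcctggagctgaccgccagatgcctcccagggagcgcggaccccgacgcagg

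Cxcl1 and Gbp5 each held 2 NF-kB motifs and Il6 and Bcl3 each 1, and all 4 genes were lower in both treated libraries. Among promoters of genes called lower in all 3 fits, 13 of 312 (4.17%) held an NF-kB motif, against 2 of 157 (1.27%) for genes called higher and 292 of 8130 (3.59%) over tested genes with a promoter. The TEAD letters were in 33 of 157 promoters (21.0%) of genes called higher, 26 of 312 (8.33%) of those called lower and 901 of 8130 (11.1%) of tested genes. The AP-1 letters TGANTCA were in 13 of 157 (8.28%), 23 of 312 (7.37%) and 399 of 8130 (4.91%). Either of 2 forms of the SRF motif, the CArG box, was in 0, 1 and 8 promoters of these classes. Over all 27457 promoters the shares were 3.53% for NF-kB, 13.9% for TEAD and 7.33% for AP-1. A match is a run of letters and not a measured binding site, and these shares were not tested.

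Interferon-stimulated genes that passed in the fit of both libraries were lower. Of 35 tested, 0 were called higher and 8 lower, with a median of -1.85. Replicate 1 alone called 11 lower and 0 higher (median -0.86), and replicate 2 alone 28 lower and 4 higher (median -2.92). Ifit2, an RNA-binding antiviral gene, was at 3.31 and 3.11 untreated and at 1.20 and 0.07 with TNFα, a difference of -2.58 ± 0.32 (limma adjusted p = 0.00366). Of the guanylate-binding protein genes, Gbp2 was at 7.10 and 6.95 untreated and at 5.19 and 4.11 with TNFα, and Gbp5 at 3.82 and 3.77 untreated and at 1.75 and 0.14 with TNFα. Treated replicate 2 was the lower library in each. Of 13 antigen processing genes 2 were lower, Nlrc5, which encodes the activator of class I genes, and RT1-CE1, a class I gene.

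Other genes lower in both treated libraries came from several lists. Hes1, the Notch-induced repressor, was at 5.85 and 5.71 untreated and at 4.20 and 3.56 with TNFα (difference -1.90, limma adjusted p = 0.0036). Rhob, an early-induced GTPase gene, was at 7.004 and 7.177 untreated and at 5.95 and 5.50 with TNFα. Both have groups that do not overlap. Of 84 hnRNP, SR and SF3 splicing genes 8 were called lower and 3 higher, where 5.73% of all lines were lower and 4.25% higher. Srsf5, a splicing factor gene, was at 7.61 and 7.36 untreated and at 6.24 and 5.79 with TNFα (difference -1.47, limma adjusted p = 0.00901), and Ptbp2 and Rbm26 were also lower. Of 63 chromatin modifier genes 4 were lower and 0 higher, among them the helicase gene Chd7 and the demethylase gene Kdm5b, a share near the 5.73% of all lines. Tek, the angiopoietin receptor and the 1 tested endothelial marker, was at 2.39 and 2.34 untreated and at 0.25 and 0 with TNFα. Flt1, a VEGF receptor gene of the same list and too low to be tested, was at 0.02 and 0 untreated and at 1.05 and 0.84 with TNFα.

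The largest agreed rises were of a kind that the table itself qualifies. Acsl6, an acyl-CoA synthetase gene, was at 0.01 and 0.03 untreated and at 6.12 and 5.10 with TNFα, but its values in both treated libraries and in both treated wild-type libraries equal those of Acsl5 to every decimal deposited. Bsg, which encodes basigin, was at 5.32 and 6.59 untreated and at 10.63 and 10.31 with TNFα. Acyp1, an acylphosphatase gene, was listed at 0 untreated and was at 4.70 and 4.29 with TNFα. Hnrnpk, the gene of the series title, was at 8.03 and 7.84 untreated and at 12.70 and 10.62 with TNFα, a difference of 3.72 ± 0.62 (limma adjusted p = 0.0129). Over lines with a mean FPKM of at least 1, 287 were over 2 log2 units higher in all 4 TNFα-treated wild-type and Tnfrsf1α-/- libraries than in the untreated wild-type and the treated Tnfrsf1β-/- libraries. Of these 283 are lines on a step and the other 4 are Acsl6, Acyp1, Bsg and Hnrnpk. Whether the values of these 4 share the unit change of the lines on a step was not tested.

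Apart from these 4, the largest agreed rises were in low-level lines and in near-copies of ribosomal protein genes. Tm7sf3, a membrane protein gene, was at 0.16 and 0.02 untreated and at 2.69 and 3.88 with TNFα (difference 3.19 ± 0.33, limma adjusted p = 0.00181). Pold4, a DNA polymerase delta subunit, was at 0.16 and 0.41 untreated and at 1.97 and 4.94 with TNFα. Fam64a, named Pimreg in RefSeq, was listed at 0 and at 0.05 untreated and was at 1.77 and 5.32 with TNFα. Replicate 2 was the higher treated library in all 3. LOC100361060, named Rpl36l3 in RefSeq, was at 2.82 and 3.39 untreated and at 5.57 and 6.82 with TNFα, and the pseudogene Rps15-ps2 was at 0 and 1.27 untreated and at 3.87 and 5.43 with TNFα. Of the 274 agreed rises 83 carry placeholder symbols, 19 of them named in RefSeq as ribosomal protein genes or copies. Such copies share reads with the parent genes, so their levels are uncertain.

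Some DNA replication genes rose in both treated libraries. Of 32 tested, 14 were called higher and 0 lower, with a median of 0.88, and 14 further lines of the list were on a step. Replicate 1 alone called 9 higher and 0 lower (median 0.80) and replicate 2 alone 20 higher and 1 lower (median 0.87). Tk1, thymidine kinase of the salvage pathway, was at 6.07 and 6.13 untreated and at 7.14 and 7.08 with TNFα, a difference of 1.01 ± 0.16 (limma adjusted p = 0.01). Gins3, a subunit of the replicative helicase, was at 2.13 and 1.98 untreated and at 3.44 and 3.65 with TNFα. Rfc2, a clamp loader subunit, and Orc6, of the origin recognition complex, were also higher. The treated libraries differed by at most 0.41 in these 4 genes. Mitosis genes did not follow: of 33 tested, 0 were called higher and 1 lower in the fit of both. That 1, the kinetochore gene Cenpf, was at 4.78 and 4.53 untreated and at 3.32 and 2.47 with TNFα. The mitosis list median was -0.08 in replicate 1 and 0.12 in replicate 2, and 23 lines of that list were on a step.

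Some respiratory chain and lysosome genes also rose. Of 80 nuclear respiratory chain subunits 22 were called higher and 0 lower (median 0.98), 12 in replicate 1 alone (median 0.59) and 67 in replicate 2 alone (median 1.43). With median-ratio scaling the 22 became 9 and the 12 of replicate 1 became 2, and with quantile normalization they became 35 and 24. Cox8a, a cytochrome c oxidase subunit, was at 6.37 and 6.42 untreated and at 7.82 and 8.30 with TNFα, a difference of 1.67 ± 0.23 (limma adjusted p = 0.006). Of 41 lysosomal genes 7 were called higher and 0 lower (median 0.72). Each replicate alone called 1 lower, beside 12 higher in replicate 1 and 19 in replicate 2. Grn, which encodes the lysosomal protein progranulin, was at 7.21 and 7.31 untreated and at 8.94 and 9.44 with TNFα (difference 1.93 ± 0.21, limma adjusted p = 0.00242). Ctsd, the protease cathepsin D, was at 7.30 and 7.45 untreated and at 8.77 and 8.34 with TNFα. Of 16 vacuolar ATPase subunits, which acidify lysosomes, 6 were higher and 0 lower, among them Atp6v0d1 at 5.55 and 5.55 untreated and 6.86 and 6.52 with TNFα. Of 27 COPI and COPII coat genes, which carry vesicles between endoplasmic reticulum and Golgi, 5 were higher and 0 lower. The coat list median was 0.09, or -0.02 after quantile normalization, with 0.23 in replicate 1 and -0.04 in replicate 2. In these examples the groups did not overlap.

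These list counts rest on few libraries. Leaving out untreated replicate 1 or untreated replicate 2 left 0 DNA replication genes, 0 respiratory chain genes and 0 vacuolar ATPase genes called in either case, and 1 lysosomal gene. The early genes kept calls: 2 AP-1 genes and 2 other immediate early genes were still called lower without either library, and 0 or 1 interferon-stimulated gene. Without either treated wild-type library 5 DNA replication, 6 respiratory chain, 3 interferon-stimulated and 5 other immediate early genes were called.

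The direction of both gene classes was shared with the state of the untreated knockout libraries as a whole. Of the 465 lines called lower in all 3 fits, 370 (79.6%) were higher in all 4 untreated knockout libraries than in every other library of the series, against 2400 of all 11302 tested lines (21.2%). Of the 274 called higher, 204 (74.5%) were lower in all 4 than in every other library, against 1314 of all (11.6%). The choice of these lines fixes part of this order, since 4 of the 12 libraries chose them. Fos was at 5.89 to 6.15 in the 4 untreated knockout libraries and at 0 to 1.37 in the other 8. These 4 libraries are also those with no step and with the lowest totals, 425636 to 452532 FPKM outside the lines on a step, against 500010 and 645357 FPKM in the treated Tnfrsf1α-/- libraries. TNFα treatment and what sets the untreated knockout libraries apart cannot be told apart for these genes.

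**Figure D4:**
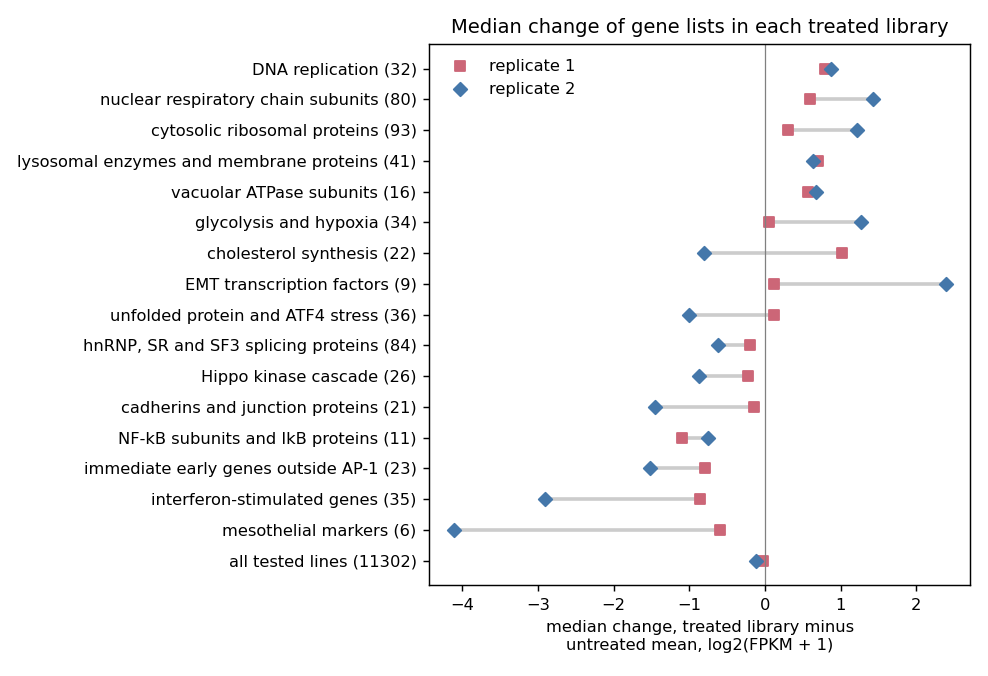
Median difference in log2(FPKM + 1) (x axis) of treated replicate 1 (red squares) and replicate 2 (blue diamonds) from the mean of the untreated pair for 16 gene lists and all tested lines (y axis, number of tested lines in brackets). DNA replication and lysosomal genes lie near each other in the 2 libraries, while cholesterol synthesis and mesothelial markers lie far apart.

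Treated replicate 2 lacked genes that the other 3 libraries held at high levels. In 86 lines replicate 2 was under 1 and replicate 1 over 5, and in 77 of them both untreated libraries were over 5 as well. In 53 of the 86 both treated wild-type libraries were under 1 too. Eln, which encodes elastin, was at 11.64 and 11.88 untreated, 11.31 in replicate 1 and 0.49 in replicate 2. Upk3b, a uroplakin made by mesothelium, was at 9.28 and 9.53 untreated, 9.66 in replicate 1 and 0.32 in replicate 2. Replicate 1 lay close to the untreated pair in both. The cadherin gene Cdh3, the tetraspanin gene Tspan8, the Wnt modulator gene Sfrp2 and the keratin gene Krt14 had the same form, with replicate 1 at 8.57 to 9.40 and replicate 2 at 0.03 to 0.81. NEWGENE_621351, with 2 lines, was at 8.91 and 8.89 in replicate 1 and listed at 0 in replicate 2.

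Cell type markers moved with this split. Of 6 mesothelial markers, replicate 2 alone was called lower in 5 and higher in 1, Krt19, which reached 0.46 there. Replicate 1 alone was called lower in 1, Gpm6a. Wt1, a transcription factor gene of mesothelium, was at 6.38 and 6.27 untreated, 5.01 in replicate 1 and 0.13 in replicate 2. Msln, which encodes mesothelin, was at 10.45 and 10.53 untreated, 10.11 in replicate 1 and 6.49 in replicate 2. Krt8 was at 7.86 and 7.95 untreated, 6.26 in replicate 1 and 0.62 in replicate 2. Of 21 cadherin and junction genes 13 were lower and 0 higher in replicate 2 alone, against 1 lower and 0 higher in replicate 1 alone. Fewer cells of a type and less RNA per cell cannot be told apart in bulk RNA.

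Another set was high in replicate 2 alone. In 49 lines replicate 2 was over 5 and replicate 1 under 1, and in 24 of them all 10 other libraries were under 1 too. Mmp3, which encodes the matrix protease stromelysin 1, was at 0.07 and 0.08 untreated, 0.32 in replicate 1 and 11.49 in replicate 2. Crabp1, a retinoic acid binding protein gene, was at 0 and 0.38 untreated, 0.58 in replicate 1 and 11.34 in replicate 2. Both are among the highest levels of replicate 2 and near 0 elsewhere in this comparison. The protease gene Mmp10, the prostaglandin genes Ptgr1 and Ptges, the mesenchymal homeobox genes Prrx1 and Prrx2, and Lect2, a secreted protein gene, were at 7.02 to 9.73 in replicate 2 and at 0.16 to 0.75 in replicate 1.

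Genes of mesenchymal character went both ways in replicate 2. Of 9 transcription factors known to drive epithelial-mesenchymal transition, replicate 2 alone called 7 higher and 1 lower, and replicate 1 alone 2 higher and 0 lower. Twist1, one of them, was at 0.23 and 0.36 untreated, 1.627 in replicate 1 and 5.601 in replicate 2. Col6a2, a collagen VI chain, was at 0.34 and 0.25 untreated, 2.30 in replicate 1 and 7.66 in replicate 2. Replicate 1 lay above the untreated pair in both and far below replicate 2. Des, an intermediate filament gene of muscle and stellate cells, was the 1 mesenchymal marker called in the fit of both libraries, of 5 tested: it was at 4.51 and 4.66 untreated and at 5.95 and 6.45 with TNFα (limma adjusted p = 0.0241). Replicate 2 alone called 1 of the 5 higher and 3 lower (median -1.76). Acta2, the smooth muscle actin gene, was at 6.67 and 6.98 untreated, 8.55 in replicate 1 and 0.26 in replicate 2. Col3a1, a fibrillar collagen gene, was at 7.61 and 7.64 untreated, 7.23 in replicate 1 and 3.26 in replicate 2. Both lay far lower in replicate 2 than in the other 3 libraries. Cd68, a macrophage lysosomal marker, was at 0.51 and 0.87 untreated, 0.66 in replicate 1 and 4.09 in replicate 2, and 7 of 13 leukocyte marker lines were listed at 0 in replicate 2 against 11 in each of the other 3 libraries. The list summed to 16.3 FPKM in replicate 2 and to 0.433 to 0.872 FPKM in the others. Cd68 held most of the sum in replicate 2 and was the 1 line of the list to reach 1 FPKM there. Ptprc, Csf1r, Spi1 and Lyz2, of the same list, were at 0.004 to 0.13 in replicate 2. The part of this list in the result was not tested.

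**Figure D5:**
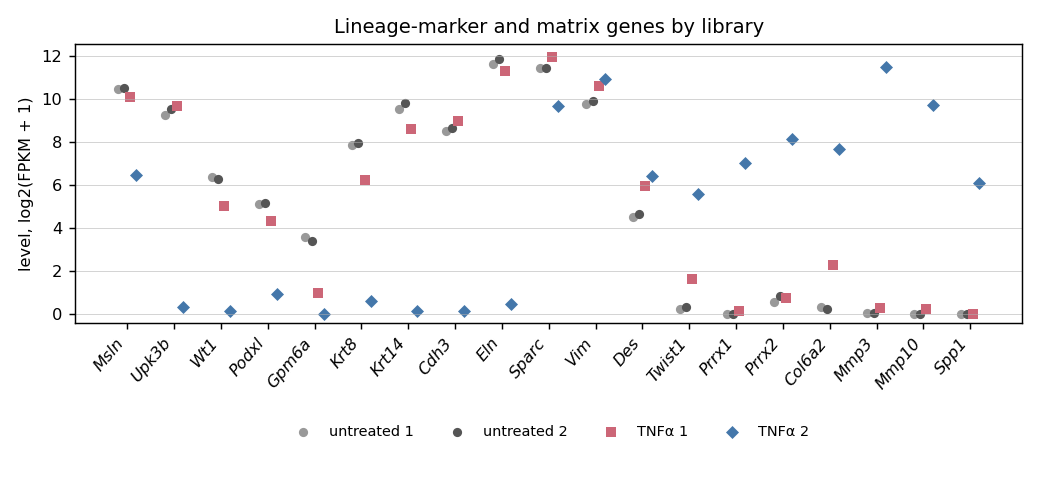
Level in log2(FPKM + 1) (y axis) of 19 lineage-marker and matrix genes (x axis) in the untreated libraries (grey circles) and TNFα-treated replicates 1 (red squares) and 2 (blue diamonds). From Upk3b to Eln, replicate 2 lies under 1, and from Twist1 to Spp1 it lies over 5 with the other 3 libraries under 3.

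Cholesterol synthesis genes were called in different directions in the treated libraries. Of 22 cholesterol synthesis genes replicate 1 alone called 10 higher and 0 lower (median 1.01), and replicate 2 alone 3 higher and 12 lower (median -0.81). The fit of both called 1, Ebp, a sterol isomerase gene, higher. Of 93 cytosolic ribosomal protein genes replicate 1 alone called 1 higher and replicate 2 alone 67 higher (medians 0.31 and 1.21), and none was called lower in either. Of 36 unfolded protein and ATF4 stress genes replicate 1 alone called 1 higher and 1 lower, and replicate 2 alone 2 higher and 20 lower. Sdf2l1, an endoplasmic reticulum chaperone partner, was higher in both, at 3.94 and 4.44 untreated and 5.79 and 6.06 with TNFα (limma adjusted p = 0.00366). Of 34 glycolysis and hypoxia genes 3 were called higher and 0 lower in the fit of both, Pgam1, Gapdh and Adm.

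YAP pathway genes showed little that both libraries shared. Yap1 was at 5.998 and 6.128 untreated and at 5.80 and 5.61 with TNFα, a difference of -0.36 ± 0.65 (limma adjusted p = 0.717). Wwtr1, which encodes the related co-activator TAZ, was at 5.47 and 5.67 untreated and at 5.001 and 4.785 with TNFα, a difference of -0.68 ± 0.23 (limma adjusted p = 0.0856). Of 26 genes of the Hippo kinase cascade, which restrains YAP, 1 was called lower, the kinase gene Taok1. Replicate 2 alone called 16 lower and 0 higher (median -0.88), among them Lats1, which was at 3.93 and 3.76 untreated, 3.18 in replicate 1 and 1.90 in replicate 2. Replicate 1 alone called 1 higher and 0 lower (median -0.22).

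The response was set against that of wild type by the difference of the differences. It passed in 3651 of 11302 lines (32.3%), 1246 higher (11%) and 2405 lower (21.3%) than in wild type. With median-ratio scaling the split was 1791 higher and 1707 lower, since the median difference over all lines was -0.46. The count was 1895 or 2155 without a treated wild-type library, 1968 or 2106 without an untreated Tnfrsf1α-/- library and 6720 without treated Tnfrsf1α-/- replicate 1. The treated wild-type libraries stand apart from all others. Of the 17 hepatocyte marker lines 13 reached 1 FPKM in each of them. The list summed to 5470 and 5612 FPKM there, against 9.09 to 41.1 FPKM in the other 10 libraries. The 11 mesenchymal marker lines not on a step summed to 3.19 and 4.05 FPKM there, against 1873 to 6152 FPKM. Tagln, Dcn and Col1a1, of the same list, were left out because their lines were on a step. They were listed at 7.72 to 11.37 in treated wild type, which cannot be read in FPKM. The part of the treated wild-type libraries in the result was not tested.

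The largest differences from wild type followed those libraries. Tmsb4x, an actin-binding thymosin gene, differed by 12.57 ± 0.56 (limma adjusted p = 4.14e-07): it was at 13.14 and 13.89 in untreated and at 0.51 and 0.46 in treated wild type, and at 10.52 and 10.24 untreated and 9.53 and 10.32 with TNFα under the label Tnfrsf1α-/-. Alb, which encodes albumin, differed by -9.73 ± 0.22 (limma adjusted p = 3.98e-08): it was listed at 0 in untreated and was at 10.01 and 9.92 in treated wild type, and was at 0 to 0.27 in the 4 Tnfrsf1α-/- libraries. In both the wild-type libraries moved and the Tnfrsf1α-/- libraries did not pass. Fos differed by -5.82 ± 0.33 (limma adjusted p = 2.08e-06): in wild type it was at 0.33 and 0.16 untreated and at 1.22 and 1.37 with TNFα. The treated levels of Fos thus lay between 0.96 and 1.37 in these 4 libraries and the untreated ones differed. Hnrnpk differed by -0.25 ± 0.88 (limma adjusted p = 0.842), being at 7.24 and 6.55 untreated and at 11.41 and 10.33 with TNFα in wild type.

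Against the response under the label Tnfrsf1β-/-, 1606 lines (14.2%) differed, 1048 higher (9.27%) and 558 lower (4.94%). The median difference over all lines was 0.53, and with median-ratio scaling the split was 302 higher and 809 lower. Without an untreated Tnfrsf1β-/- library 4 lines passed in either case, without untreated Tnfrsf1α-/- replicate 1 there were 6 and without replicate 2 there were 13. Without treated Tnfrsf1β-/- replicate 2 there were 49, without a treated wild-type library 203 or 213, without an untreated wild-type library 2610 or 2613, and without treated Tnfrsf1α-/- replicate 1 or 2 there were 4416 and 5663. Fos did not pass: under the label Tnfrsf1β-/- it was at 6.15 and 6.12 untreated and at 0.51 and 0 with TNFα, and the difference of response was 1.11 (limma adjusted p = 0.0558). Bcl3 passed, with a difference of -2.55 (limma adjusted p = 0.0183), being at 4.62 and 4.64 untreated and at 3.87 and 4.50 with TNFα in Tnfrsf1β-/- cells.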

How the data were processed

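The authors deposited 1 table of log2(FPKM + 1) values for all 12 libraries. Per the labels' protocols, total RNA was extracted with Trizol and libraries were made with the Illumina TruSeq kit. The sources used here do not name the aligner, quantifier or genome build. Of 22730 lines, 346 had no symbol. A line was taken to be on a step where its values lay within 0.0001 steps of whole multiples in at least 2 libraries. The test planned for FPKM was kept and these lines were left out of the tests except in 1 alternative, which was chosen after seeing the data.

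Lines with a mean FPKM of at least 1 were fitted with limma 3.58.1 (R 4.3.3) as group means over 12 libraries, with an intensity trend, a two-sided threshold of 0.05 and Benjamini-Hochberg adjustment over all 11302 lines. Each treated replicate was also fitted with the other left out. On simulated data for TNFα under the label Tnfrsf1α-/- with 11302 genes, 15% of 100 genes changed 2-fold and 91% of 100 genes changed 8-fold were recovered, with 7 false calls. The simulation gave each gene the same normal spread in all 12 libraries and changed only genes above a set mean level. In the data the treated pair differed far more than the untreated pair, so these rates need not hold here.

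Members and the 63 gene lists were chosen with earlier results of these data known. Named genes are Tnfrsf1a, Tnfrsf1b, Hnrnpk, Yap1 and Wwtr1, the 12 highest and 12 lowest agreed changes, the 8 largest replicate differences each way, the 6 largest differences from wild type each way, and up to 4 genes a list by smallest p. Acsl5, Nfkbia and genes lost to a step were named after their values were seen. Promoters are from RefSeq (GRCr8), and 9905 tested lines (87.6%) matched a RefSeq symbol. Alternatives were another scaling, pseudocount and filter, fewer groups, a replicate block and each library left out.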

Additional observations from a re-analysis of the deposited data

Results flagged for a closer look

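The response to TNFα under the label Tnfrsf1α-/- differed from that of wild type in 3651 lines and from that under the label Tnfrsf1β-/- in 1606 lines by limma's test of the difference of the differences. Among genes with the largest agreed rises, the difference from wild type passed for Rps15-ps2 (4.85), Fam64a (4.83), LOC100361060 (4.49), LOC100909911 (3.86), RGD1559955 (3.83), LOC100361180 (3.82) and Tm7sf3 (-1.83). Among those with the largest agreed falls it passed for Fos (-5.82), Abi3bp (-4.41), LOC108348298 (-4.40), Rn60_1_2212.3 (-2.88), Npr3 (-2.76) and Il19 (-2.49).

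The 6 highest differences from wild type were those of S100a4 (12.83), Tmsb4x (12.57), S100a6 (11.84), LOC100364435 (11.40), Cst3 (10.70) and Tagln2 (10.66). The 6 lowest were those of Ceacam6 (-14.72), LOC100910270 (-10.70), Ttr (-10.13), Lbp (-10.12), Ahsg (-10.07) and Alb (-9.73). The lines on a step, left out of every test but 1 alternative, had a median treated minus untreated value of 5.47.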

How the results depend on the processing

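The 1128 calls for both treated libraries became 2144 with quantile normalization, 640 with a pseudocount of 0.1, 612 at a mean FPKM of at least 5, 0 in the fit of only the groups compared, 2052 with lines on a step and 62 to 6475 when 1 library was left out. The higher and lower calls were 1087 and 1057 with quantile normalization, 380 and 260 with the pseudocount and 369 and 243 at 5 FPKM. For replicate 1 alone the 1119 calls became 2172, 711 and 551 in the first 3 of these settings, 1752 without a filter, 1991 with only the groups compared, 1826 with lines on a step and 364 to 498 without an untreated replicate. For replicate 2 alone the 6475 calls stayed within 1.5 times, at 4628 to 8092. The 3651 differences from wild type became 2357 at 5 FPKM, 2287 with only the groups compared and 1895 to 6720 when 1 library was left out. The 1606 differences from Tnfrsf1β-/- became 1044 without a filter, 1064 with only the groups compared and 4 to 5663 when 1 library was left out. The cause was not tested.

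The replicate numbers are shared labels and nothing says that they pair the libraries. The replicate 1 minus replicate 2 differences correlated at 0.146 between treated and untreated Tnfrsf1α-/- libraries and at -0.169 to 0.298 over all pairs of groups. With the replicate block the calls were 1821 for both treated libraries, 4106 against wild type and 2237 against Tnfrsf1β-/-.

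Of the genes named by the rule, 3 passed with the sign opposite to that of the fit of both libraries when a treated replicate was left out, as did Nfkbia (0.65 without replicate 1, against -0.31 in the fit of both). Others, such as Upk3b (-9.09 and 0.26), changed sign without passing against the direction of that fit. Lect2 went from 6.32 without replicate 1 to -0.62 without replicate 2, Acta2 from -6.57 to 1.72 and Tfrc from -1.47 to 1.99. Among named genes 130 lost their call without untreated replicate 1, 117 without untreated replicate 2 and 74 or 75 without a treated wild-type library. In the fit of only the groups compared, which called 0 lines, 146 named genes lost their call. The losses without an untreated replicate are thus most of the calls that named genes had. Depth is unknown, so it sets no limit that can be stated.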
